A study of Homo sapiens with 20 samples.

Results

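The regions described here are stretches of the LNCaP genome that carried H3K4me3 but no H3K27ac in control cells. They were found by merging the regions of the 2 LNCaP control siRNA H3K4me3 lists that overlapped by at least 1 bp on chromosomes 1 to 22 and X, by keeping the merged regions present in both lists and under 5000 bp wide, and by dropping every region that overlapped a region of either LNCaP control siRNA H3K27ac list. Of 30237 H3K4me3 regions present in both lists and under 5000 bp, 5196 had no H3K27ac, which is 17.2% (95% Wilson interval 16.8 to 17.6). The other 25041 regions overlapped H3K27ac and served as the comparison. Presence of H3K4me3 and absence of H3K27ac in the control libraries were used to choose the regions, so these are descriptions and were not tested. The number depends on the shorter of the 2 H3K4me3 control lists, the first, without which 10588 regions met the rule.

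The study used RNA interference to deplete CTCF and asked how chromatin responded. LNCaP, a cell line from a lymph node metastasis of prostate cancer, was transfected with 20 nM of a non-targeting siRNA pool (control siRNA) or 20 nM of a pool against CTCF (CTCF siRNA), split and transfected again, and collected 144 h after the start. H3K4me3, H3K27ac and CTCF were each mapped by ChIP-seq in 2 control and 2 CTCF siRNA libraries, and CTCF was mapped in the same way in IMR90 lung fibroblasts by a standard and by a low-cell protocol, which makes 20 libraries in 10 groups of 2. Every LNCaP library came from the same line, depletion by siRNA was transient, and the lists hold called regions and not read counts, so a region that is absent from a list fell below the threshold of the caller and need not have lost all signal.

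H3K4me3 is laid down at gene starts by the SET1 and MLL complexes and is strongest at CpG islands, which are stretches rich in unmethylated CpG. H3K27ac is placed by the acetyltransferases p300 and CBP and marks active promoters and enhancers, so a promoter with H3K4me3 alone is one that carries the promoter mark without the mark of activity. In many cell types such promoters belong to developmental genes that are held silent by Polycomb, whose mark was not mapped in these libraries. CTCF is a zinc finger protein that binds a long motif, anchors chromatin loops together with cohesin and separates neighbouring domains.

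The lists held 36638 to 59921 regions for H3K4me3, 70100 to 99158 for H3K27ac and, in LNCaP, 38018 and 46365 CTCF peaks with control siRNA against 3732 and 7736 with CTCF siRNA. The lists hold no read counts, and the read numbers that the study gives per library were not used for any value here. By those numbers the first CTCF siRNA library for CTCF in LNCaP had fewer reads than any other LNCaP CTCF library. What this did to its calls was not tested. The length of a list need not follow read numbers, so it is no measure of depth. All intervals given below are 95% Wilson intervals, or Newcombe intervals for differences, and cover counting error over regions, which are not replicates of a condition. Of genes that mark LNCaP cells, KLK3, HOXB13, FOLH1, KRT8, KRT18 and EPCAM had H3K4me3 with H3K27ac at their start, TMPRSS2 had an H3K4me3 region that did not meet the rule, and KLK2 had none. Of the 9 genes that mark other cells and are in the annotation, VIM and COL1A1 had both marks and the other 7 (COL1A2, DCN, PDGFRB, PTPRC, KRT5, KRT14 and TP63) had no H3K4me3, and none of the genes just named started in a region without H3K27ac.

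For 4 of the widest regions without H3K27ac over a protein-coding start, the reference sequence before the start is shown to make its CpG visible. Not all of the widest regions were of this kind. The region of 4700 bp (chr10:38797651-38802350) lay away from gene starts and was CpG-poor, by the limits given below. Each line gives the 250 bases upstream of the annotated start of the gene, 5′ to 3′ on the strand of the gene (all 4 genes are on the plus strand), with every CpG in capitals. The windows, on hg19 coordinates, were chr5:52776206-52776455 for FST, chr17:14204148-14204397 for HS3ST3B1, chr7:101458934-101459183 for CUX1 and chrX:129114833-129115082 for BCORL1. They held 20, 15, 39 and 31 CpG, at a GC content of 59.2%, 64%, 83.2% and 76.8%.
FST: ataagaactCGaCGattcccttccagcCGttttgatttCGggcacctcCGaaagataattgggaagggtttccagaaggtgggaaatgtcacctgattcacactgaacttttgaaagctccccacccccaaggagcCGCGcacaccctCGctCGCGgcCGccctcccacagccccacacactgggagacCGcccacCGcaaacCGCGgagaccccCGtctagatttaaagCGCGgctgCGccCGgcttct
HS3ST3B1: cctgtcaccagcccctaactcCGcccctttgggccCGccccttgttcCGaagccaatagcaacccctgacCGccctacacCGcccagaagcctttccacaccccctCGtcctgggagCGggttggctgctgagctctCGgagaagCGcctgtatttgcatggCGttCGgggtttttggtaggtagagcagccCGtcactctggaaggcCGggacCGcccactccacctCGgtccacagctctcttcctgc
CUX1: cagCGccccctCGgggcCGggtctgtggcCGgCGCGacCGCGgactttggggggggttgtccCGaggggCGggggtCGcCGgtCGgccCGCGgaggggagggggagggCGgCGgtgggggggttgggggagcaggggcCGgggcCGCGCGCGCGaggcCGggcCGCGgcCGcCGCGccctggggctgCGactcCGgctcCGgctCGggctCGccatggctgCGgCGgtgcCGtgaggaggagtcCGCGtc
BCORL1: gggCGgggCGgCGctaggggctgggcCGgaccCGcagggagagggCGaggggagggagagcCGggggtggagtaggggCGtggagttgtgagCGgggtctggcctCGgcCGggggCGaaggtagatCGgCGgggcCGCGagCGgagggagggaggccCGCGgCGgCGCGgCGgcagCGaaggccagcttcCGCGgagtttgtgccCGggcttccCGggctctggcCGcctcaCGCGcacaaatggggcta

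Other regions without H3K27ac are shown for their CTCF peak, 5 of them by the 101 bases around its summit. The capitals mark a stretch with the best match to the core letters of the CTCF motif, CCANNAGNNGGC, which has 8 fixed letters and was searched on both strands. The first 3 are the regions with the highest mean control fold enrichment (windows that meet an annotated exon are not shown). They lay in an intron of CCDC63 (chr12:111325949-111326049, 5 of 8 letters matched), 5805 bp from MYL4 (chr17:45307223-45307323, 7 letters) and at a transcript start that is not the start of a protein-coding or lncRNA gene, 36084 bp from EYA4 (chr6:133890126-133890226, 6 letters). The last 2 are the strongest persistent and the strongest lost region in which all 8 letters matched, the former between genes and nearest to ETV3 (chr1:157133557-157133657) and the latter at a transcript start of the same kind as that near EYA4 and nearest to LINGO1 (chr15:77925921-77926021). All are printed 5′ to 3′ on the plus strand. The LINGO1 window holds another match of all 8 letters near its 3′ end, left in lower case.
CCDC63: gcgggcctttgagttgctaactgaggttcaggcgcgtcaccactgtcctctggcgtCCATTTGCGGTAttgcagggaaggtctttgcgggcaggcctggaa
MYL4: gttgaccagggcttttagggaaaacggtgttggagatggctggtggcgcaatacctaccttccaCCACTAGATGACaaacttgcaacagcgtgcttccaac
EYA4: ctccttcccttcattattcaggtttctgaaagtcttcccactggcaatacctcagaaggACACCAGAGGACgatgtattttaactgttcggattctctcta
ETV3: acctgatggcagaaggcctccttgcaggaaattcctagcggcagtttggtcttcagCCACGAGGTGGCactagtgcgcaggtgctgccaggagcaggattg
LINGO1: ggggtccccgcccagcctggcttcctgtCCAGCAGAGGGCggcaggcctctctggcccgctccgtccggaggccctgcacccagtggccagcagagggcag

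The regions without H3K27ac were narrow. Their median width was 1350 bp (quartiles 1100 and 1850 bp), against 1950 bp (quartiles 1350 and 3000 bp) for regions with H3K27ac. At gene starts the medians were 1700 and 3100 bp, and elsewhere 1250 and 1500 bp. Above the width limit the pattern was almost absent, since only 2 of the 913 shared H3K4me3 regions of 5000 bp or more had no H3K27ac. The 3 widest regions inside the limit measured 4850, 4700 and 4450 bp, and the 2 outside it measured 5100 bp (chr20:25839951-25845050) and 6450 bp (chr19:24566551-24573000). Because width and H3K27ac went together, the main comparisons below are also given for regions of like width.

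Gene starts were more frequent in regions without H3K27ac, most clearly at like width. A start of a protein-coding or lncRNA gene lay within 1000 bp of 2234 of the 5196 regions, or 43.0% (interval 41.7 to 44.3), beside 38.5% over all 30237 regions and 37.5% of those with H3K27ac. Without the first control H3K4me3 library the share was 25.5%. Among regions of 1000 bp to under 2000 bp the shares were 36.4% and 8.60%, a difference of 27.8 percentage points (26.2 to 29.5), and among those of 2000 bp or more they were 77.6% and 67.1%, a difference of 10.5 points (7.77 to 13.0). By position, 1838 regions (35.4%) lay at a protein-coding start, 396 (7.62%) at a lncRNA start only, 710 (13.7%) at the start of some other transcript, 247 (4.75%) in an exon, 894 (17.2%) in an intron and 1111 (21.4%) between genes. Introns held 28.9% and intergenic sequence 14.2% of the regions with H3K27ac.

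Base composition separated the 2 sets further than position did. A region was called CpG-rich where its GC content exceeded 50% and its observed over expected CpG ratio exceeded 0.6. This held for 2109 regions without H3K27ac, or 40.6% (39.3 to 41.9), against 14.7% of regions with H3K27ac and 19.2% of all. Among regions of 2000 bp or more the shares were 69.0% and 26.3%, and among those of 1000 bp to under 2000 bp 35.1% and 3.53%. The median GC content was 54.4% without and 46.9% with H3K27ac. Crossing the 2 properties gave 1518 CpG-rich regions at a gene start, 591 CpG-rich regions elsewhere, 716 CpG-poor regions at a gene start and 2371 CpG-poor regions elsewhere, the largest class, with median widths of 1800, 1400, 1600 and 1200 bp.

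The regions were unevenly spread over chromosomes. They made up 12.9% of the shared H3K4me3 regions of chromosome 1 (443 of 3437) and 33.4% of those of chromosome 18 (120 of 359), with 26.2% on chromosome X (165 of 630) and 24.8% on chromosome 13 (118 of 475). On the other 19 chromosomes the share lay between 13.0% and 20.3%. Many had H3K27ac nearby: the nearest control H3K27ac region lay at a median distance of 15950 bp (quartiles 5150 and 42662 bp), under 1000 bp away for 360 regions (6.93%) and under 20000 bp away for 2902 (55.9%). Close to a large gap in the assembly (size and distance limit both 1000000 bp) lay 152 regions (2.93%), against 1.52% of regions with H3K27ac. Which of the regions named here, the widest included, lie close to such a gap is not given.

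The widest promoters without H3K27ac included those of a secreted antagonist, of transcriptional repressors and of a cell cycle kinase. The widest of all covered FST (chr5:52774001-52778850), which encodes follistatin, the antagonist of activin. The H3K4me3 region there measured 2800 and 4850 bp in the control libraries and 4450 and 5000 bp after CTCF siRNA. HS3ST3B1, a heparan sulfate sulfotransferase, lay under a region of 4450 bp (chr17:14202501-14206950), BCORL1, a transcriptional corepressor, under 4200 bp (chrX:129114751-129118950), CUX1, a homeobox repressor, under 4200 bp (chr7:101457351-101461550) and CDK6, a cyclin D kinase, under 4100 bp (chr7:92461451-92465550). The list continued with EGR3, DDX51 with NOC4L, KIF26B, KCNAB2 with NPHP4, and RTN4RL2, all between 3950 and 4250 bp. H3K4me3 was called at all 10 in both CTCF siRNA libraries, with widths of 2550 to 4500 bp in the first and 4100 to 5600 bp in the second. A CTCF peak was present in both control libraries at 5 of them (FST, HS3ST3B1, CDK6, KIF26B and RTN4RL2) and in both CTCF siRNA libraries at none. The fold enrichment of CTCF at RTN4RL2, which encodes a Nogo receptor family protein, was 23.6 and 20.3 with control siRNA, no peak was called in the first CTCF siRNA library, and 5.15 was reached in the second.

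Promoters without H3K27ac held several short motifs less often than promoters with it. In the 300 bp around each protein-coding start (250 before to 50 after), searched on both strands, the ETS core CCGGAAG occurred in 5.95% of the 1831 genes that started in a region without H3K27ac (4.96 to 7.13), against 19.3% of the 10476 with H3K27ac, 3.02% of the 7315 with no H3K4me3 and 11.8% of all 20090. AAGATGGC, the YY1 core, occurred in 1.04%, 4.81%, 1.11% and 3.03% of the same sets, and CCAAT, the NF-Y core, in 28.5%, 38.1%, 34.6% and 35.8%. GGGCGG, the GC box, occurred in 70.4%, 66.2%, 28.0% and 52.2%, and TATAAA in 6.55%, 6.20%, 18.6% and 10.9%. The median number of CpG in the window was 26 without H3K27ac, 24 with it and 5 at genes with no H3K4me3. A match gives the presence of letters and not binding, and overlaps between the motifs were not removed.

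Several groups of developmental, signalling and neuronal genes were frequent among the genes that started in these regions. Over all protein-coding genes, 9.11% (1831 of 20090) had their start in or within 1000 bp of a region without H3K27ac, and these were 14.9% of the 12307 genes with either kind of region. Among clustered protocadherins, which encode neuronal adhesion proteins, 28 of 53 genes did so (52.8%, 39.7 to 65.6). Among developmental signalling ligands and antagonists it was 22 of 76 (28.9%, 20.0 to 40.0), among homeobox regulators outside the HOX clusters 25 of 107 (23.4%), among other developmental transcription factors 23 of 103 (22.3%), among voltage-gated potassium channel genes 8 of 35 (22.9%), among neuronal channels and receptors 17 of 88 (19.3%), and among HOX genes 7 of 39 (17.9%, 8.98 to 32.7), an interval that includes the share of all genes. Of the genes with either kind of region, those without H3K27ac were 81.0% of the neuronal genes (17 of 21), 66.7% of the ligands (22 of 33) and 56.8% of the homeobox genes (25 of 44).

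**Figure D1:**
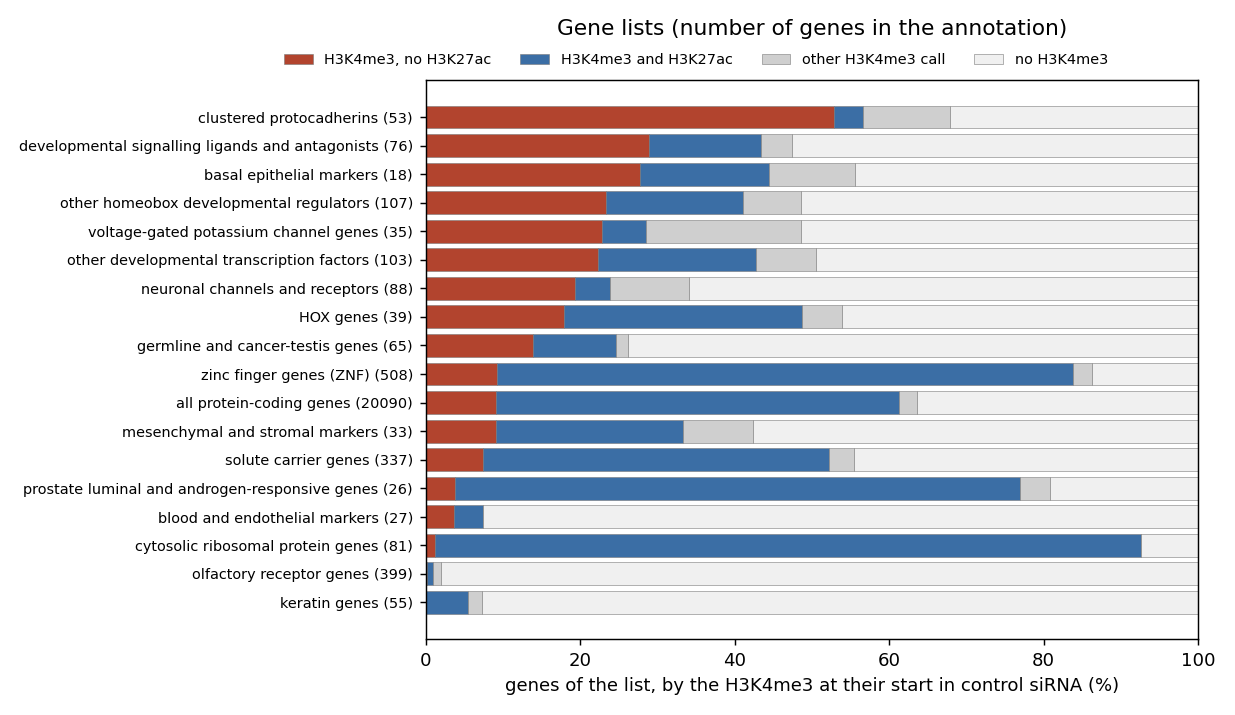
Share of the genes of each list (horizontal axis, in percent; number of genes in brackets) by the H3K4me3 at their start in the LNCaP control libraries. Red marks H3K4me3 without H3K27ac, which reaches 52.8% of the clustered protocadherins and 9.11% of all protein-coding genes; blue marks H3K4me3 with H3K27ac, which covers 74 of the 81 ribosomal protein genes.

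Most other lists lay near or under the share of all genes. Of 65 germline and cancer-testis genes 9 started in a region without H3K27ac (13.8%, 7.46 to 24.3), of 508 ZNF genes 47 (9.25%), of 337 solute carrier genes 25 (7.42%) and of 33 mesenchymal and stromal markers 3 (LOX, COL5A1 and MYH11), and of 27 blood and endothelial markers 1 (KDR, a receptor for VEGF). Of 26 prostate luminal and androgen-responsive genes, 19 had H3K27ac and 1, ERG, was without it. Of 81 ribosomal protein genes 74 had H3K27ac, and the only member without was RPL10L, a retrogene. Of 399 olfactory receptor genes 391 had no H3K4me3 and 1, OR52N2, was in a region without H3K27ac, and no keratin gene was. Basal epithelial markers stood higher, with 5 of 18 (27.8%, 12.5 to 50.9), namely CAV1, EGFR, DST, S100A2 and ITGB4. These lists were chosen with earlier results of the data known, and the counts describe them without a test.

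At the transcription factors and ligands named next, H3K4me3 was called in all 4 libraries. LHX4, a LIM homeobox factor, lay under the widest region of its list, which measured 3700 and 3650 bp in the control libraries and 3400 and 3950 bp after CTCF siRNA (chr1:180197901-180201800). At NKX2-8 the widths were 2650 and 2500 bp against 2650 and 3000 bp, and at ISL1, a regulator of motor neuron and pancreatic development, 2450 and 2550 bp against 2550 and 2650 bp. Of the HOX genes, HOXD13 carried 1350 and 2000 bp against 1200 and 1800 bp. DLL4, a Notch ligand, had 2900 and 3100 bp against 3100 and 4650 bp, FGF9 had 2150 and 2100 bp against 2650 and 3300 bp, and RSPO3, an enhancer of WNT signalling, had 1450 and 2000 bp against 2150 and 2300 bp. None of the 25 homeobox regions held CTCF in both control libraries, and all 25 had H3K4me3 in both CTCF siRNA libraries. For comparison, 1752 of the 1831 genes (95.7%) kept it in both and 270 (14.7%) had CTCF in both controls.

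CTCF, which the rule did not use, was found at the regions without H3K27ac in every LNCaP library. A peak overlapped 27.8% and 21.0% of them in the 2 control libraries and 6.31% and 8.01% in the 2 CTCF siRNA libraries, and the 2 groups did not overlap. The mean was 24.4% ± 4.82 with control siRNA and 7.16% ± 1.20 with CTCF siRNA (SD, n = 2 libraries each), a difference of 17.2 percentage points, and the exact permutation test gave p = 0.333, two-sided, the smallest value that 2 against 2 libraries allow. Regions with H3K27ac had peaks at 16.3% and 15.0% with control siRNA and at 1.44% and 2.41% with CTCF siRNA. In each of the 4 libraries the share was higher without H3K27ac, by 11.5 (10.2 to 12.8), 5.94 (4.76 to 7.15), 4.88 (4.23 to 5.58) and 5.60 points (4.86 to 6.39). This excess was not found at every width. A peak in both control libraries was present at 13.7% of regions without and 4.97% of regions with H3K27ac under 1000 bp, and at 21.9% and 8.51% at 1000 bp to under 2000 bp, but at 15.1% and 15.8% from 2000 bp upward, a difference of -0.733 points (-2.86 to 1.63). At CpG-rich gene starts the shares were 13.0% and 15.4%. In IMR90, a line in which the regions were not chosen, peaks overlapped 16.9% and 18.7% of them with control siRNA and 13.8% and 12.3% with CTCF siRNA, and by the low-cell protocol 17.3% and 16.8% against 8.43% and 3.93%. From 2000 bp upward a peak in both standard IMR90 control libraries was less frequent without H3K27ac, at 11.9% against 14.7%, a difference of -2.87 points (-4.79 to -0.704).

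**Figure D2:**
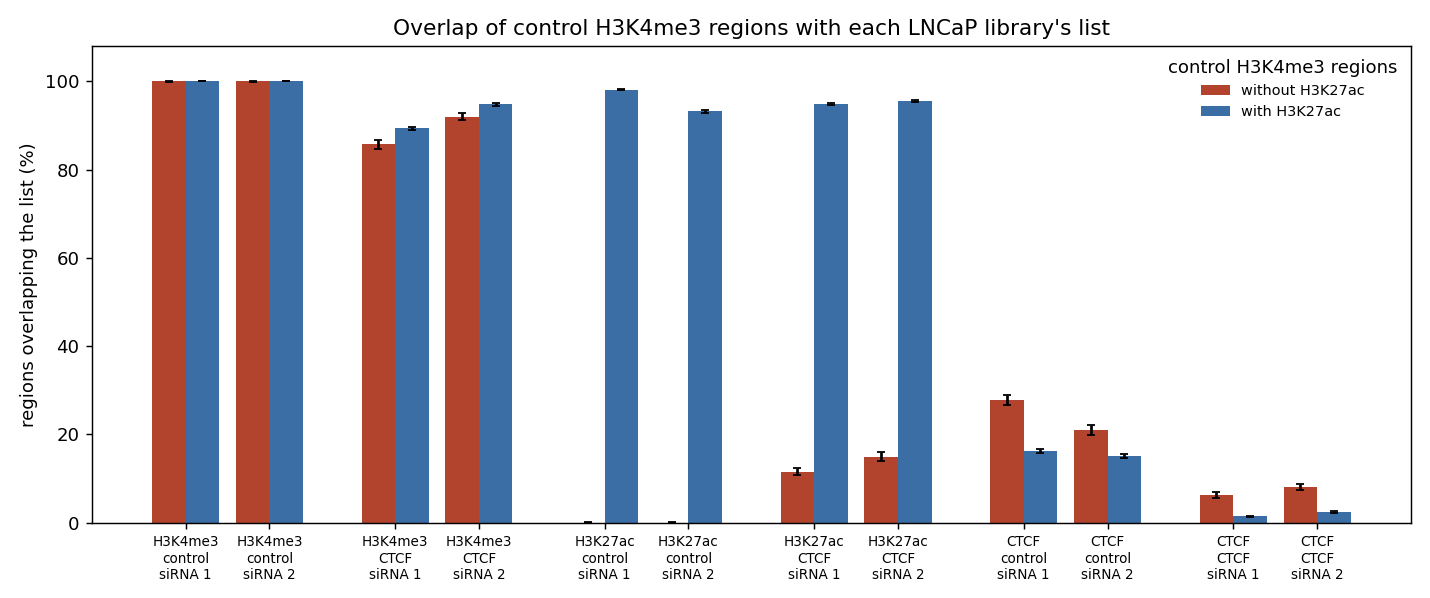
Percent of control H3K4me3 regions (vertical axis) that overlap a region or peak of each LNCaP library (horizontal axis, mark, siRNA and replicate), for the 5196 regions without H3K27ac (red) and the 25041 with it (blue); error bars are 95% Wilson intervals. The control H3K4me3 and H3K27ac bars are fixed by the rule; CTCF bars are higher for red in all 4 CTCF libraries, for example 27.8% against 16.3% in the first control library.

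The control CTCF libraries were unequal at CpG-rich regions. A peak in both controls was present at 1023 regions (19.7%, beside 13.3% over all H3K4me3 regions), in the first library only at 420 and in the second only at 66, and 78.8% of the 420 were CpG-rich. Below, a CTCF site means a merged peak of both controls, a persistent site one called again in the 2 CTCF siRNA libraries, and a lost site any other. Both names depend on the first CTCF siRNA library, which by the study's numbers had the fewest reads of the LNCaP CTCF libraries. By these definitions 238 of the 1023 regions were persistent and 785 were lost. CTCF was present at 13.0% of CpG-rich gene starts (197 of 1518), 17.9% of CpG-rich regions elsewhere (106 of 591), 23.5% of CpG-poor gene starts (168 of 716) and 23.3% of CpG-poor regions elsewhere (552 of 2371). In the last class 161 of 552 (29.2%) were persistent, against 16 of 197 (8.12%) at CpG-rich gene starts.

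CTCF sites in regions without H3K27ac persisted more often than others of like strength, except among the weakest. Of the 1045 sites, which lay in the 1023 regions, 239 (22.9%, 20.4 to 25.5) kept a peak in both CTCF siRNA libraries, beside 9.26% of all 33377 control sites and 8.11% of the 3131 sites in regions with H3K27ac. Taken library by library, 26.0% and 39.7% of the 1045 were kept, against 9.55% and 18.3% of the 3131. These sites were also stronger, with a median control fold enrichment of 16.1 against 11.7, so all control sites were put into 5 bins of equal number by fold enrichment. In the strongest bin 49.0% of sites without H3K27ac persisted (150 of 306), against 27.4% with H3K27ac and 28.7% outside shared H3K4me3 regions. The median fold enrichment in that bin was 25.9, 26.1 and 26.6. The difference from sites with H3K27ac was 21.6 points there (14.8 to 28.2), 11.7 in bin 4 (6.49 to 17.4), 6.85 in bin 3 (3.08 to 11.8) and 2.29 in bin 2 (0.028 to 6.64), and in bin 1, the weakest, it was -1.25 (-2.78 to 3.11).

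**Figure D3:**
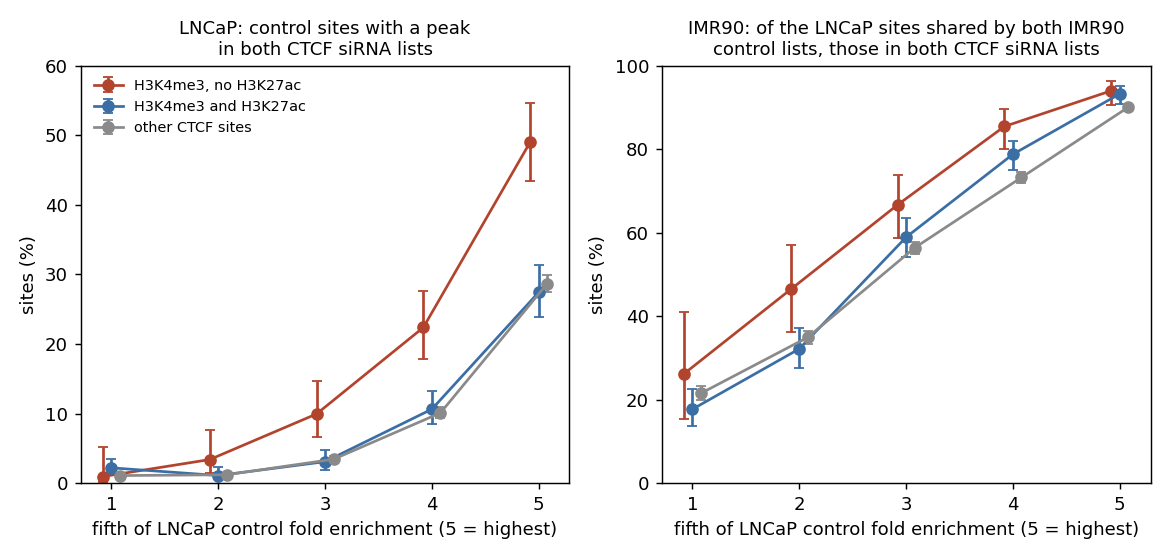
Percent of control CTCF sites (vertical axis) called again in both libraries with CTCF siRNA, by bin of LNCaP control fold enrichment (horizontal axis, 5 strongest), for sites in H3K4me3 regions without H3K27ac (red), with H3K27ac (blue) and elsewhere (grey); left LNCaP, right IMR90 among sites called in both IMR90 controls, with 95% Wilson intervals. In LNCaP the red point reaches 49.0% in the strongest bin, where the others stand at 27.4% and 28.7%. In IMR90 the 3 points there stand at 94.0%, 93.3% and 90.1%.

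The same sites were common in fibroblasts. Of the 1045, 769 (73.6%) had a peak in both standard IMR90 control libraries, near the 72.6% of all LNCaP sites. At like strength they were shared less often than sites with H3K27ac in bins 2 to 5. The shares were 76.9% against 85.2% in bin 4 and 92.5% against 94.7% in bin 5. In bin 1 they were 40.4% and 38.9%. Of the 769, 596 (77.5%, 74.4 to 80.3) kept the peak in both standard IMR90 CTCF siRNA libraries, against 61.5% for sites with H3K27ac and 61.7% elsewhere. These kept shares are not matched for strength, and at like strength the gap was smaller, with 85.4% against 78.8% for sites with H3K27ac in bin 4 and 94.0% against 93.3% in bin 5. The low-cell libraries were not used for these shares. The study reported a smaller reduction of CTCF mRNA in IMR90 than in LNCaP. The strongest site, in an intron of CCDC63 (chr12:111325051-111326500), had fold enrichments of 44.1 and 58.6 with control siRNA and of 25.2 and 50.9 with CTCF siRNA in LNCaP. The site in an intron of CACNA1E, a calcium channel gene (chr1:181393351-181394550), had 46.1 and 49.3 against 15.3 and 20.0. At MYL4 the values were 43.9 and 57.1 with control siRNA, and after CTCF siRNA a peak of 17.7 was called in the second library only. At WDR38 they were 43.0 and 52.6, with a peak of 12.0 in the first CTCF siRNA library only. At EYA4, a transcriptional coactivator, they were 47.0 and 48.9, with a peak of 9.66 in the second CTCF siRNA library only. All 5 of the strongest sites had peaks in the 2 standard IMR90 control and the 2 IMR90 CTCF siRNA libraries.

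The letters of the CTCF motif were more frequent at persistent sites. CCANNAGNNGGC lay within 100 bp of the summit at 28.0% of the 1045 sites (25.4 to 30.8), at 40.6% of the persistent ones (97 of 239, 34.6 to 46.9) and at 24.3% of the lost ones (196 of 806, 21.5 to 27.4). These shares are not matched for strength, and 150 of the 239 persistent sites were in the strongest bin. The motif was also counted in other windows. It lay at 17.2% of sites with H3K27ac and 28.4% of those outside shared H3K4me3 regions, and at 0.957% of windows of the same size placed 1000 bp from the 1045 summits. In the 101 bp printed above, at least 7 of the 8 letters were matched at 70.2% of the 1045 sites and in 8.33% of windows 1000 bp away, and at least 6 at 93.1% and 46.4%. The summits stood close to the middle of the H3K4me3 region, at a median distance of 186 bp for persistent and 224 bp for lost sites, against 362 bp for protein-coding gene starts. Gene starts up to 1000 bp outside a region count here. Regions at gene starts were also wider than those elsewhere, so these distances are not like for like. The summits were most often 100 to 299 bp to either side of the centre (66.5% of persistent and 49.9% of lost summits), and under 100 bp from it in 15.1% of each.

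**Figure D4:**
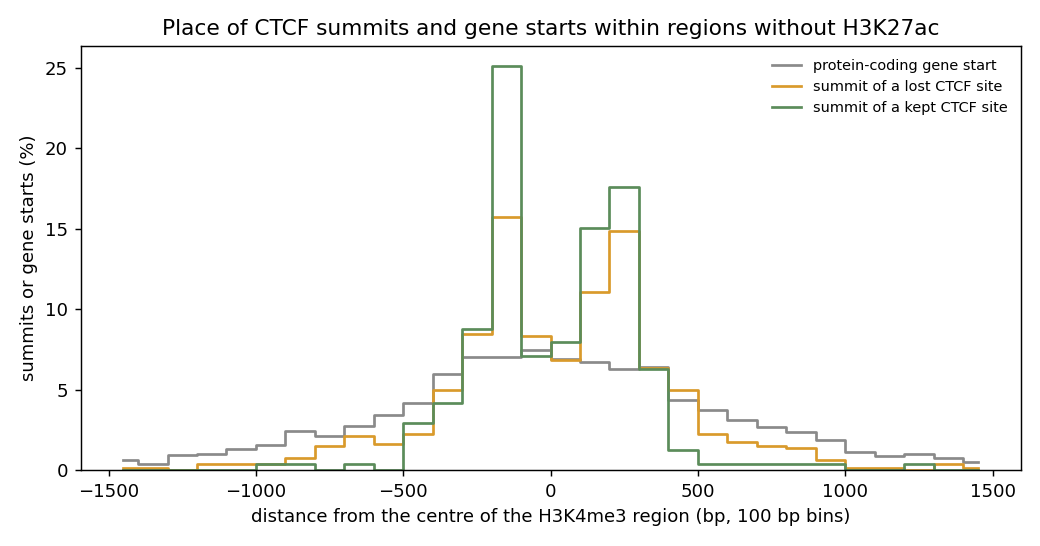
Distance of CTCF summits and protein-coding gene starts from the centre of the H3K4me3 region at which they were counted (horizontal axis, bp, 100 bp bins; vertical axis, percent of each kind), over regions without H3K27ac. Gene starts up to 1000 bp outside a region count too, and a start near several regions counts at each. Summits of the 239 persistent (green) and 806 lost (orange) sites gather on both sides of the centre, at median distances of 186 and 224 bp, while the 1940 gene starts (grey) are spread more widely, with a median of 362 bp.

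H3K4me3 was still called at most of the regions after CTCF siRNA. It was present at 85.7% in the first and 92.0% in the second CTCF siRNA library, whose list was the longer, and at 4368 regions (84.1%, 83.0 to 85.0) in both, beside 86.9% over all 30237 regions. It was present in 1 of the libraries at 499 and in neither at 329 (6.33%, 5.70 to 7.03), beside 3.85% of all. Without the first control H3K4me3 library, the regions of the second list alone were found in both CTCF siRNA libraries in 53.0% of cases. Width went with this more than H3K27ac did. Regions of 2000 bp or more kept it in 99.1% of cases without and 99.3% with H3K27ac, regions of 1000 bp to under 2000 bp in 84.6% and 79.5%, and narrower ones in 49.0% and 37.7%. The differences were -0.195 points (-0.989 to 0.265), 5.12 points (3.71 to 6.49) and 11.3 points (6.14 to 16.5). Of the CpG-rich regions at gene starts 96.4% kept it, and of the CpG-poor regions away from gene starts 72.5%. At the 4368 regions kept, the median width was 1250 and 1400 bp in the control and 1350 and 1750 bp in the CTCF siRNA libraries, highest in the second CTCF siRNA library, whose list was also the longest.

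Among regions of like width under 2000 bp, those with a lost CTCF site kept H3K4me3 less often than those with no CTCF peak. At 1000 bp to under 2000 bp, 2200 of 2518 regions with no control CTCF peak kept H3K4me3 in both CTCF siRNA libraries (87.4%, 86.0 to 88.6), 174 of 210 with a persistent site did (82.9%, 77.2 to 87.4), and 417 of 583 with a lost site did (71.5%, 67.7 to 75.0). The difference between lost and none was -15.8 points (-19.8 to -12.1) and between lost and persistent -11.3 points (-17.2 to -4.66). With a lost site judged by 1 CTCF siRNA CTCF library, lost and none differed by -16.3 points without the first and -16.8 points without the second. Within CpG-poor regions of that width the shares were 82.2% for none, 82.2% for persistent and 65.9% for lost. Within CpG-rich ones they were 97.0% for none, 87.9% for lost and 86.7% for persistent, the last over 30 regions only, so there lost and persistent sites did not differ beyond counting error (1.25 points, -8.89 to 18.2). Under 1000 bp the lost regions kept it in 29.1% of cases (16 of 55) against 51.3% with no peak, and from 2000 bp upward 98.9% of regions with none and 99.3% with a lost site kept it. Both CTCF siRNA libraries showed the direction, with 73.4% for lost against 89.3% for none in the first and 87.5% against 93.1% in the second, so in the second alone the difference was -5.65 points. Its size also depended on other libraries, with -7.99 points without the second control H3K4me3 library, -9.68 points without the first control H3K27ac library and -10.4 points without the second control CTCF library.

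The same look-up in the other direction gave the opposite order at 1000 bp to under 2000 bp. H3K4me3 regions of both CTCF siRNA lists without H3K27ac in either CTCF siRNA H3K27ac list were sought in the control lists. At 1000 bp to under 2000 bp, 76.4% of those at a lost CTCF site were in both control lists (389 of 509), 65.1% of those at a persistent site (142 of 218) and 55.0% of those with no CTCF peak (1795 of 3262). Lost sites stood 21.4 points above none (17.2 to 25.3) and persistent sites 10.1 points above none (3.35 to 16.4). At this width lost sites thus stood below none in regions chosen under control siRNA and above none in regions chosen after CTCF siRNA. In the mirrored look-up persistent sites stood above none as well, and that look-up was not split by CpG. Under 1000 bp lost sites did not stand above none in the mirrored look-up, with 6.25% for lost (1 of 16) against 10.5% for none (29 of 277). The 2 choices share libraries and are not independent. In regions with H3K27ac the difference between lost and none at this width was 3.64 points (0.822 to 6.18), with 82.5% and 78.9% kept, the opposite sign to regions without it, while that between lost and persistent was -10.4 points (-14.7 to -4.10), the same sign as in regions without it. Among CpG-rich regions with H3K27ac, lost and none differed by -3.84 points (-13.0 to 0.238).

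**Figure D5:**
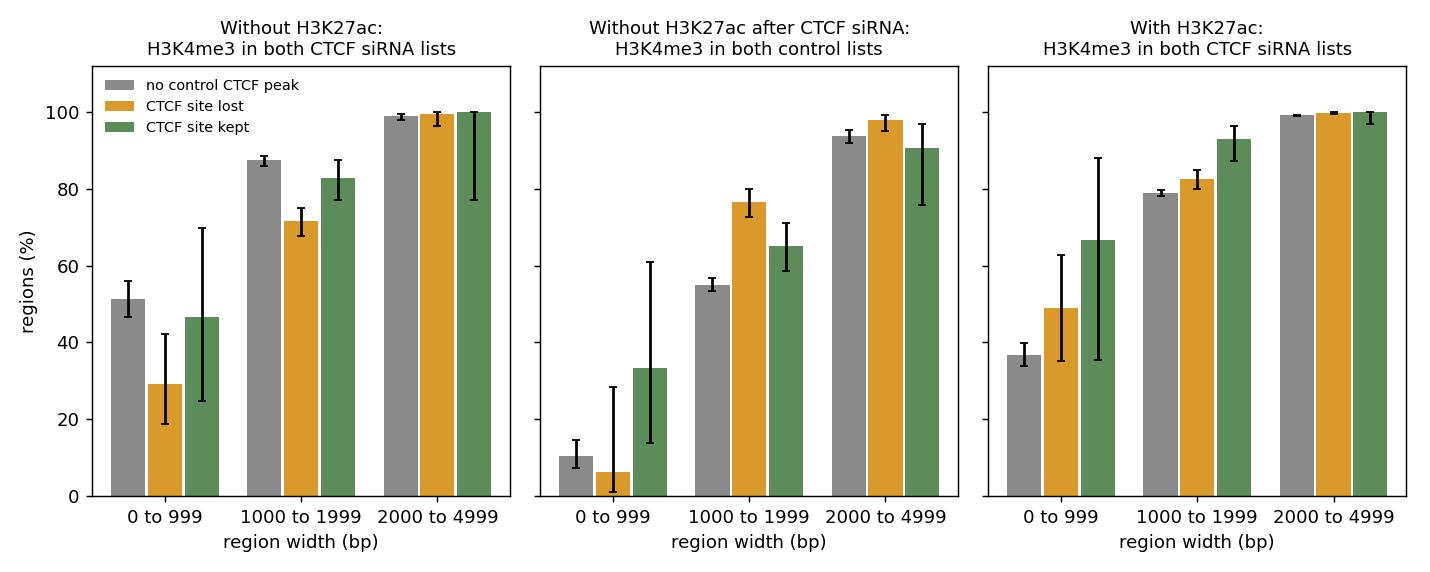
Percent of H3K4me3 regions (vertical axis) found in both libraries of the other treatment, by region width (horizontal axis, bp) and CTCF at the region (grey none, orange lost, green persistent), with 95% Wilson intervals. On the left are regions without H3K27ac looked up after CTCF siRNA, where lost sites are lowest at 1000 bp to under 2000 bp (71.5% against 87.4%). In the middle are regions chosen after CTCF siRNA and looked up in control, where lost sites are highest at that width (76.4% against 55.0%). On the right are regions with H3K27ac.

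The clustered protocadherins on chromosome 5 held many such regions side by side. Most of their promoters carry a CTCF site and are chosen, differently from cell to cell, by looping to a shared enhancer. The 28 genes that started in a region without H3K27ac had 28 distinct regions. All 28 had H3K4me3 in both control libraries by the rule, 18 had it in the first and 21 in the second CTCF siRNA library, 15 in both and 4 in neither. The share kept in both, 53.6%, compares with 95.7% over all genes of such regions, which are unlike the protocadherins in composition and CTCF. CpG-rich regions were 3 of the 28, but 1304 of the 1831 genes had one. Among all CpG-poor regions without H3K27ac at a lost CTCF site, 65.9% kept it at 1000 bp to under 2000 bp. Under 1000 bp the share was 23.3%. A CTCF peak was called at 22 and 22 of them with control siRNA and at 3 and 3 with CTCF siRNA, with 19 lost and 2 persistent sites. No H3K27ac was called at any of them after CTCF siRNA.

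Individual protocadherin promoters ranged from no call to widths like those of the controls. At PCDHGA3 (chr5:140722801-140724250) the H3K4me3 region measured 1350 and 1400 bp with control siRNA and was called in neither CTCF siRNA library, and CTCF fold enrichments of 7.42 and 7.55 gave way to no peak. PCDHB4, PCDHB13 and PCDHB11 were likewise called in neither. At PCDHGA2 (chr5:140717851-140719850) the widths were 1950 and 1350 bp against none and 850 bp, and at PCDHGA6 (chr5:140752851-140754600) 1500 and 1750 bp against none and 1200 bp. At PCDHGA10 (chr5:140791951-140793950), with CTCF at 11.2 and 20.4 in control and at 8.08 in the first CTCF siRNA library only, the widths were 1900 and 2000 bp against 1750 and 1900 bp. PCDHGB5, with a persistent site of 21.8 and 23.5 against 9.97 and 7.85, had 1250 and 1300 bp against 1150 and 1550 bp, and PCDHB3, the other persistent one, had 1500 and 1300 bp against 1650 and 1550 bp. PCDHAC2, with no CTCF peak, had 1200 and 1300 bp against 1250 and 2500 bp. Of these, PCDHGA3, the 3 named beside it, PCDHGB5, PCDHB3 and PCDHAC2 were singled out after their values were seen.

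The widest regions called in neither CTCF siRNA library had no CTCF peak and little CpG. All 5 were on chromosome 7. The widest, chr7:61906901-61909300, measured 1000 and 2150 bp in the control libraries, and 2 more lay close by at chr7:61873901-61875800 and chr7:61884251-61886100, with GC contents of 36.0%, 35.8% and 35.8% and no protein-coding gene nearer than 1549926 bp. The other 2 were chr7:63541201-63543100, in an exon of ZNF727, and chr7:70355451-70357350, 96958 bp from AUTS2, a gene of neurodevelopment. None exceeded 2400 bp, and their observed over expected CpG ratio lay between 0.0992 and 0.176. Whether any of the 5 is among the 152 regions close to a large assembly gap is not given here.

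H3K27ac appeared at some of the regions after CTCF siRNA. It was called at 601 regions (11.6%, 10.7 to 12.5) in the first and at 776 (14.9%, 14.0 to 15.9) in the second CTCF siRNA library, and at 403 (7.76%, 7.06 to 8.51) in both. Without the first control H3K27ac library the share in both was 19.1%. Because the rule demanded that it be absent from both controls, any later call is a gain, and over the whole genome 15.3% of the 71710 H3K27ac regions of both CTCF siRNA lists had no counterpart in either control list. The mirrored rule gives the size of that construction: of 5916 H3K4me3 regions without H3K27ac after CTCF siRNA, 141 (2.38%, 2.02 to 2.80) had it in both control libraries, which is 5.37 points less (4.56 to 6.21). Leaving out a library moved this difference to 14.7 points without the first and 3.56 points without the second control H3K27ac library, and to 10.3 points without the first CTCF siRNA H3K27ac library. With every list shortened to the shortest of its mark, the difference was 0.755 points and its interval included 0. The CTCF siRNA H3K27ac lists were the longer ones.

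Choosing the regions with 1 control library and reading the other showed how much replicates of 1 treatment differ. Of 6909 regions without H3K27ac in the second control library, 24.8% had it in the first control library, against 24.6% and 27.8% in the CTCF siRNA libraries. Of 5665 regions without it in the first control library, 8.28% had it in the second, against 15.4% and 19.0%. The share after CTCF siRNA was above that in the held-out control in both libraries when the longer control list was used to choose, and in the second library only when the shorter one was. By CTCF at the region, 8.19% of regions with no CTCF peak gained H3K27ac in both libraries (302 of 3687), 7.56% of those with a persistent site (18 of 238) and 5.73% of those with a lost site (45 of 785), the last differing from none by -2.46 points (-4.16 to -0.424), and by -1.55 points (-3.33 to 0.683) among regions of 1000 bp to under 2000 bp.

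Regions that gained H3K27ac were wider and nearer to existing H3K27ac. The 403 regions gained in both libraries had a median width of 1650 bp and lay at a median of 9200 bp from a control H3K27ac region, 14.6% of them (59) under 1000 bp away. The 4222 without gain had a median width of 1350 bp and a median distance of 18100 bp, with 5.35% under 1000 bp. By width, the gain was 14.2% from 2000 bp, 5.91% at 1000 bp to under 2000 bp and 7.42% below. Of the 1831 genes that started in the regions 142 gained it in both libraries, none of them among the protocadherins, the ligands or the neuronal genes, 1 among the homeobox regulators outside the HOX clusters (DLX5) and 6 among the 47 ZNF genes.

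The widest promoters that gained H3K27ac were DDX51 with NOC4L (chr12:132626801-132630850), DPF3, TSR3 with GNPTG, PRKAG2, and PLAG1 with CHCHD7. The H3K27ac regions called over them after CTCF siRNA were short. They measured 850 and 1050 bp at NOC4L, 1500 and 1550 bp at DPF3 (chr14:73358501-73362400), a subunit of the BAF chromatin remodeller, 750 and 1200 bp at TSR3 and 1050 and 1200 bp at PRKAG2 (chr7:151571951-151575550), a regulatory subunit of AMPK. The longest H3K27ac region called over a region that gained it was of another order. At MAP1B (chr5:71402201-71405400), a neuronal microtubule-binding protein, it measured 95450 and 113050 bp, while H3K4me3 went from 3200 bp in both controls to 5100 and 5250 bp. How much of this H3K27ac call overlapped control H3K27ac was not measured, so its whole width need not be new. The next longest were at KCNK1, with 6350 and 6700 bp, ST6GALNAC4, with 4400 and 5900 bp, MID1, with 4400 and 4050 bp, and STX1A, with 3650 and 5150 bp. At KCNK1, ST6GALNAC4 and STX1A control H3K27ac already stood 200, 50 and 200 bp from the region. At MID1 the nearest control region was 34850 bp away and at MAP1B 7600 bp.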

How the data were processed

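ChIP-seq of H3K4me3, H3K27ac and CTCF in LNCaP and of CTCF in IMR90 was used, 20 libraries in 10 groups of 2. Per the study's methods and notes, the authors mapped with Bowtie 1.1.0 (hg19, up to 3 mismatches, ambiguous and clonal reads discarded) and called histone regions with PeakRanger and CTCF peaks with MACS2 (2.1.0, or 2.1.2 for the low-cell libraries, aligned with BWA), per library without pooling. The deposited histone lists carry a score whose meaning is not given, used only to rank regions. The deposited CTCF lists carry a fold enrichment (a ratio over background) and −log10 p-values and q-values, with a largest q-value of 0.0499. Read depth is not in the lists.

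Lists were merged and overlapped (at least 1 bp) in Python 3.11.15 with pandas 2.3.3, numpy 2.4.6 and scipy 1.17.1, after the overlap code was tested on simulated data. Genes came from GENCODE release 44 on GRCh37, whose chromosome lengths match hg19, and sequences from that assembly. Intervals are Wilson and Newcombe intervals at 95%, and libraries were compared by an exact permutation test. A gene counts as with H3K27ac where a region of any width with it lies within 1000 bp of its start. Named regions were the 10 widest over a protein-coding start, the 5 strongest for CTCF, the 5 widest and 5 longest with H3K27ac gained, the 5 widest without H3K4me3 after CTCF siRNA, up to 6 widest per gene list, and those next to the width limit. Regions and gene lists were chosen with earlier results of these data known. The study describes replicates as biological, but not whether equal numbers share a culture. Some genes are not reported here.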

Additional observations from a re-analysis of the deposited data

How the results depend on the processing

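Of 194 alternative values 164 kept their call. For a difference the call is the side of 0 of the value or its interval, though differences could move well beyond their interval. For a count it is staying within 1.5 times, and for a share within the spread between libraries or its own interval. None of the differences changed sign, while counts and shares have no direction. Many values could not move, because the library or setting changed does not enter them, so the tally does not measure robustness. Keeping the 50% best-ranked H3K4me3 regions left 2330 regions without H3K27ac, of which 62.5% lay at a gene start and 90.6% kept H3K4me3 in both CTCF siRNA lists, and 19.5% of their CTCF sites were kept. With widths under 2000 bp the gene start share was 34.1% and the share of CTCF sites kept 25.6%. With equal list lengths the gene start share was 45.6%, H3K27ac was in both CTCF siRNA lists at 4.68%, and the excess over the mirrored rule was 0.755 points. Counting all annotated transcript starts gave 56.7%, protein-coding genes only 35.4% and a window of 2500 bp 46.9%. H3K27ac in either CTCF siRNA list was found at 18.7%. The causes were not tested. Leaving out each library in turn gave 5196 to 10588 regions, a gene start share of 25.5% to 43.2%, a CTCF share of 14.3% to 27.8%, H3K4me3 kept at 53.0% to 92.0%, H3K27ac in both lists at 6.80% to 19.1%, a difference in CTCF share of 12.3 to 20.6 points, CTCF sites kept at 15.9% to 39.7%, a difference in H3K4me3 kept between lost and no CTCF of -18.3 to -5.65 points and an excess over the mirrored rule of 3.56 to 14.7 points. The low shares at gene starts and of H3K4me3 kept, and the high number of regions, came without the first control H3K4me3 library. The high H3K27ac values came without the first control H3K27ac library. With the replicate number as a block (2 paired differences of 21.5 and 13.0 points), the mean difference in CTCF share was again 17.2 points (exact sign permutation p = 0.5, the smallest 2 pairs allow). Whether equal numbers share a culture is not stated for these libraries. The last 3 results and the removal of regions near assembly gaps were chosen after seeing the data. Read numbers were not used, and an absent region may lie just under a caller's threshold.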
